A study of Mus musculus with 2 samples.

Results

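Myb, Tcf7, Lef1, Bach2, Id3, Foxo1, Foxo3 and Maf encode transcription factors of lymphoid progenitor, memory and quiescent states, and their expression was examined in the DX5- and DX5+ natural killer (NK) cells of mouse liver. The set is defined by gene symbol, and its probe sets are all those annotated to exactly 1 of these symbols. Of the 8 genes, 7 had such a probe set, 22 in all among 45101 probe sets on the array. No probe set was listed under Tcf7 alone, so Tcf7 was not analysed here.

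NK1.1+ CD3- cells of naive wild-type B6 mice were sorted by flow cytometry into a DX5- and a DX5+ population, with liver as the source of both. The antibody DX5 binds the integrin alpha 2 chain (CD49b). Each population was hybridised to 1 Affymetrix expression array, so n = 1 in each group, and no difference below has a spread between samples or a test. The labels give no age, sex or number of mice.

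Myb (c-Myb) is required for blood progenitors and supports memory and stem-like states in T cells. Tcf7 (TCF-1) and Lef1 belong to the HMG-box family, bind the same DNA element and can recruit beta-catenin or Groucho/TLE co-repressors. Bach2 represses effector genes in lymphocytes and competes with AP-1 factors. Id3 lacks a DNA-binding region and sequesters E proteins. Foxo1 and Foxo3 are forkhead factors that AKT and SGK kinases export from the nucleus, and they drive survival, homing and cell cycle arrest genes. Maf (c-Maf) is a large Maf leucine-zipper factor that controls cytokine genes in T cells and innate lymphocytes.

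The members went in different directions. Relative to DX5+ cells, Myb, Lef1 and Bach2 were lower in DX5- cells by 10.5-fold, 3.41-fold and 2.54-fold. Id3 was 2.53-fold higher and Maf 1.94-fold higher in DX5- cells. Foxo1 was 1.11-fold lower and Foxo3 1.05-fold higher. Each gene is represented in these figures by the probe set that was brightest on average over both arrays in log2 units, and a ratio is always DX5- over DX5+.

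To read these sizes, a gene was called detected on an array if it exceeded the 95th percentile of 151 probe sets for olfactory, vomeronasal, taste, keratin-associated, crystallin and opsin genes. That limit was 76.0 intensity units in DX5- cells and 82.2 in DX5+ cells, and 10652 of 18194 genes exceeded it on at least 1 array. All 7 measured members exceeded it on both arrays. Of these 7, 3 were at least 2-fold lower in DX5- cells, whereas 5.65% of all detected genes were. At least 2-fold higher was 1 of 7, against 3.76% of detected genes. The members were chosen with earlier results of these data known. These and later comparisons of the members with all genes are therefore a description only. The median log2 ratio of the members was -0.14, beside -0.016 over all detected genes, so the set as a whole was not shifted like its lower members. The log2 ratios of single probe sets had an SD of 0.34 about the mean of their gene, pooled over 4397 genes. This SD covers probe noise and transcript differences but not differences between mice or cell preparations.

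**Figure D1:**
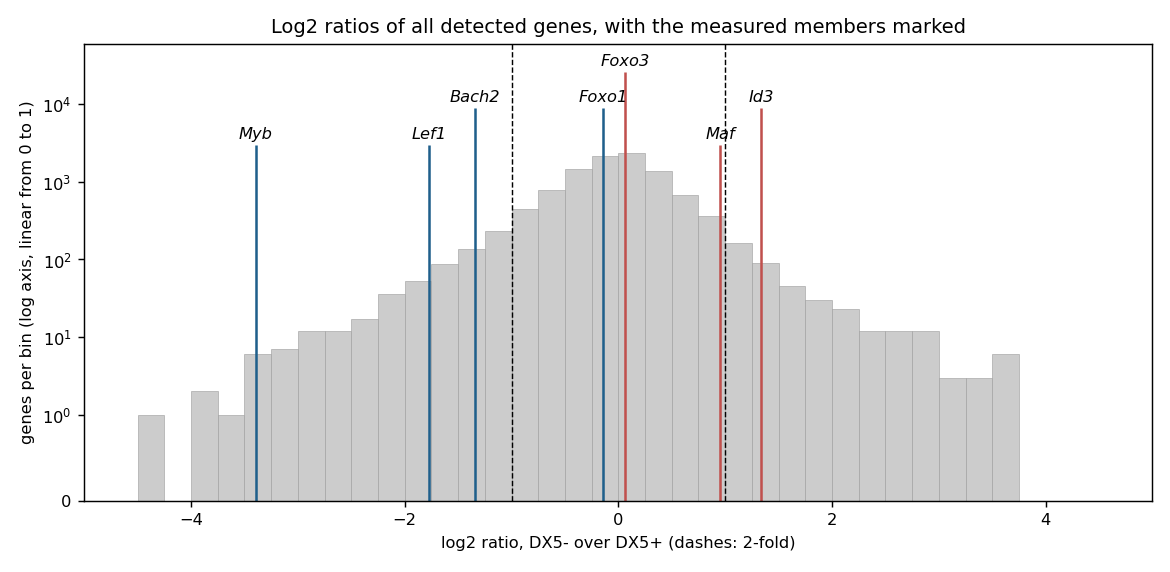
Number of detected genes (vertical axis, logarithmic above 1) by log2 ratio of DX5- over DX5+ cells (horizontal axis), in bins of 0.25, with the 7 measured members as coloured lines (red above 0, blue below 0). Myb, Lef1 and Bach2 lie left of the 2-fold dashed line, Id3 right of the other one, Maf just short of it and both Foxo genes near 0.

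The promoter windows of Myb, Lef1 and Id3 are shown because these members were past 2-fold and have a RefSeq window at the outermost annotated start of the gene. They are the 250 bases before the start in build GRCm38.p6, written from 5′ to 3′ on the strand of the gene. The Bach2 window in the same table begins inside the gene and is not shown. Capitals mark matches, on either strand, to the MYB core AACNG or to the E-box CANNTG. The TCF/LEF core CTTTGA, the FOXO core GTAAACA and the BACH/MAF core TGCTGA were searched as well. None of these 3 was found in the windows of Myb, Lef1, Id3, Foxo1 or Foxo3.
Myb, chr10:21160985-21161234, minus strand: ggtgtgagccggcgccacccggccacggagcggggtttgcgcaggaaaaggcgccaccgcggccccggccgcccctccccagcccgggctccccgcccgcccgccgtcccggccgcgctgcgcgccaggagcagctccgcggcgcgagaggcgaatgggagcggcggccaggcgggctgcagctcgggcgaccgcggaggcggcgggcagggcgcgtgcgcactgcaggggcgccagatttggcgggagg
Lef1, chr3:131110047-131110296, plus strand: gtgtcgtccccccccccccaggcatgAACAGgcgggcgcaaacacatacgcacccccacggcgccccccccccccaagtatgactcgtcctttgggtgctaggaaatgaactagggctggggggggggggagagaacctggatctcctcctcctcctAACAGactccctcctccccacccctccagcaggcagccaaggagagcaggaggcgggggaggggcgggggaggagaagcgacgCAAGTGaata
Id3, chr4:136143572-136143821, plus strand: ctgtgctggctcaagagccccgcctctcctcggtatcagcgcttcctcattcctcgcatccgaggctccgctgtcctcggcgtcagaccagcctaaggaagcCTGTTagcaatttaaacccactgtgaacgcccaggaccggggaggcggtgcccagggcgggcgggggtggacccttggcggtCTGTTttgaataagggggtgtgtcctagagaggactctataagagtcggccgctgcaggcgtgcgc
The Myb window was 81.2% G or C and held none of the 5 motifs. The Lef1 window (66.4% G or C) held 2 MYB cores and 1 E-box, and the Id3 window (62.8% G or C) held 2 MYB cores. Among 32851 RefSeq windows of this length, 74.2% held the MYB core, 66.2% an E-box, 16.1% the BACH/MAF core, 13.8% the TCF/LEF core and 3.17% the FOXO core. The MYB core and the E-box are thus common in any window of this length, and a match describes letters only. No match says only that these letters are not in this window.

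Myb was the member furthest from equality. Its 3 probe sets read 1468.8, 1055.4 and 528.1 intensity units in DX5- cells, against 15442, 12324 and 5347.2 in DX5+ cells, in the same order. Every Myb probe set was thus about as far apart as the others, at 10.5-fold, 11.7-fold and 10.1-fold lower in DX5- cells. The DX5- readings were 19.3, 13.9 and 6.95 times the detection limit. Myb RNA was thus clearly measurable in DX5- cells, and low only beside DX5+ cells. The 3 log2 ratios spanned 0.21, and 16.5% of 1086 genes with 3 probe sets above both limits had a span this narrow or narrower. Myb ranked 7th from the lowest log2 ratio among the 10652 detected genes, and 0.882% of them were at least 4-fold lower.

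Lef1 had 2 probe sets. The brighter one had an intensity of 819.5 in DX5- cells and 2796.8 in DX5+ cells, a log2 ratio of -1.77. The dimmer one had an intensity of 77.7 in DX5- cells and 215.5 in DX5+ cells, 2.77-fold lower. Its DX5- reading was 1.02 times the limit, so that fold is close to a lower bound, while the brighter probe set was well clear of the limit on both arrays. Both placed Lef1 lower in DX5- cells.

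Bach2 was measured by 3 probe sets, which read 1168.2, 971.8 and 125.8 in DX5- cells and 2966.5, 2813.4 and 254.3 in DX5+ cells. They were 2.54-fold, 2.89-fold and 2.02-fold lower in DX5- cells. The third lay just past 2-fold and was the dimmest, at 1.66 times the limit in DX5- cells. Myb, Lef1 and Bach2 were the 3 of 6 members with several detected probe sets in which every one was at least 2-fold lower. Over the array, 1.88% of 5061 genes with several detected probe sets had that property.

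Id3 was represented by a single probe set, so no second reading checks it. It had an intensity of 373.8 in DX5- cells and 148 in DX5+ cells, a log2 ratio of 1.34. The DX5+ reading was 1.80 times the limit, so both readings were above background.

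Maf had 6 probe sets, 5 of them above the limit on both arrays. The brightest had an intensity of 4910.4 in DX5- cells and 2533.9 in DX5+ cells, 1.94-fold higher and just short of 2-fold. The other detected probe sets were 2.26-fold, 1.90-fold, 1.56-fold and 1.42-fold higher in DX5- cells. All 5 thus pointed the same way, although only 1 passed 2-fold. Having all probe sets higher was not rare, since 19.7% of 968 genes with at least 4 detected probe sets did. The sixth read 43.7 and 17.3 in DX5- and DX5+ cells, below the limit on both arrays.

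The Foxo genes were the least different members, but the Foxo3 probe sets spread more widely than those of Foxo1. The 3 detected Foxo1 log2 ratios spanned 0.28. Foxo1 read 7008, 4707 and 1775.5 in DX5- cells, against 7748.9, 6302.1 and 2028.4 in DX5+ cells. These were 1.11-fold, 1.34-fold and 1.14-fold lower in DX5- cells, and the remaining probe set was below the limit on both arrays. Foxo3 read 2546.3, 1467.6 and 295.6 in DX5- cells, against 2433.5, 1004.4 and 148.5 in DX5+ cells. Its probe sets ranged from 1.05-fold to 1.46-fold and 1.99-fold higher in DX5- cells, the dimmest being furthest apart. That span of 0.93 on the log2 scale was reached or exceeded by 14.5% of the 1086 genes with 3 probe sets. The Foxo3 level therefore depends on the probe set, and the mean over its probe sets gave a log2 ratio of 0.54 in place of 0.065. A further probe set is annotated to Foxo3 together with Gm38485, had an intensity of 425 in DX5- cells and 213.5 in DX5+ cells, and was left out by the rule.

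**Figure D2:**
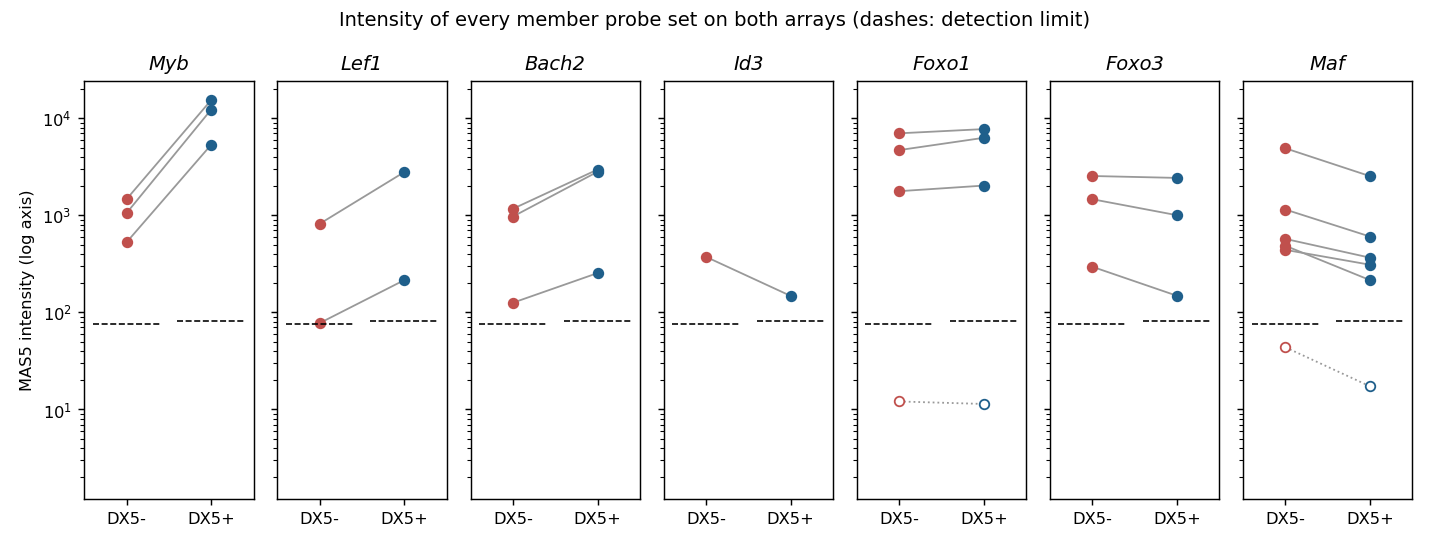
MAS5 intensity (vertical logarithmic axis) of all 22 member probe sets in DX5- cells (red, left) and DX5+ cells (blue, right), each probe set joined by a line, with dashes at the detection limit of each array. Lines run up to DX5+ in Myb, Lef1 and Bach2 and down in Id3 and Maf; open circles are the 2 probe sets below both limits.

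Over all members, 20 of 22 probe sets were above both limits. Of these 20, 8 passed 2-fold in the lower direction in DX5- cells and 2 in the higher one. Over the 19622 detected probe sets of named genes the shares were 5.37% lower and 3.59% higher. The 8 lower probe sets all belonged to Myb, Lef1 and Bach2, and the 2 higher ones to Id3 and Maf. Probe sets of 1 gene share its transcripts and are not independent readings. Just past the 2-fold threshold lay the third Bach2 probe set at 2.02-fold, and just short of it the dimmest Foxo3 probe set at 1.99-fold and the brightest Maf probe set at 1.94-fold.

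Genes whose readings on both arrays lay nearest to a member were named by distance over the 2 log2 intensities. The nearest to Myb were Eomes (distance 0.44, 8.09-fold lower in DX5- cells), a T-box factor of NK cells, and Scd2 (distance 0.90, 4.49-fold lower). Abcb1b and Il10ra were nearest to Lef1, and Abca1 and Pwp1 to Bach2. Tnpo2 and Pofut1 were nearest to Id3, Sec11a and Dnajc17 to Foxo1, Tcf25 and Sdha to Foxo3, and Padi2 and Rad23b to Maf. Over only 2 arrays such nearness is a description of a pair of readings.

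Genes linked to the members were then examined in 12 lists of partners, regulators, targets and cell states. Of 166 genes 157 had a probe set of their own and 139 were detected. Among the 139, 21 passed 2-fold in the lower direction in DX5- cells and 6 in the higher one, and the lists overlap in some genes. Over all detected genes the shares were 5.65% lower and 3.76% higher. Of the 21 lower genes, 8 were in the terminal effector list.

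The detected genes around Myb were within 2-fold on the deposited scale. Of 11 detected family members, co-activators and known targets, 0 were past 2-fold, with a median log2 ratio of -0.0036. Kit, the stem cell factor receptor and a Myb target, had an intensity of 1738.5 in DX5- cells and 1738.9 in DX5+ cells. Bcl2, a survival gene and Myb target, read 2504.5 and 1400.7 in DX5- and DX5+ cells, 1.79-fold higher in DX5- cells. The mean over all Bcl2 probe sets gave a log2 ratio of -0.0094. Gfi1, a zinc-finger repressor, was 1.61-fold lower, Myc, which drives growth, 1.35-fold higher, and Cebpb, a leucine-zipper partner of Myb, 1.28-fold higher. The related factor Mybl1 was below the limit on both arrays, and Mybl2 exceeded it in DX5+ cells only.

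Partners and targets of the TCF/LEF factors were mostly within 2-fold. Of 17 detected Wnt pathway genes and co-factors 1 passed 2-fold, with a median of 0.047. That gene was Tle2, a Groucho co-repressor, at least 2.06-fold higher, although this bound was a log2 ratio of 0.46 when the 99th percentile set the limit. Ctnnb1, which encodes beta-catenin, had an intensity of 7954.2 in DX5- cells and 9648.2 in DX5+ cells. Tle5, a short Groucho protein, was 1.78-fold higher, while the co-activator Bcl9l and the Wnt co-receptor Lrp6 were 1.63-fold and 1.60-fold lower. Of 8 detected targets, Znrf3, a ubiquitin ligase that removes Wnt receptors, was 2.67-fold lower. Bcl11b, a T cell and innate lymphocyte factor, was 4.66-fold higher. Axin2, the standard Wnt feedback gene, read 374 and 434.3 in DX5- and DX5+ cells, 1.16-fold lower, and the cyclin gene Ccnd1 was 1.41-fold lower. As means over probe sets Ccnd1 and Znrf3 had log2 ratios of -1.29 and -2.01, so that 2 targets were then at least 2-fold lower. Tcf7l1 was below the limit on both arrays and Tcf7l2 above it in DX5+ cells only.

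Among the E proteins that Id proteins bind, Tcf4 (E2-2) had an intensity of 669.2 in DX5- cells and 1985.6 in DX5+ cells, 2.97-fold lower. Tcf12 (HEB) had an intensity of 7125.8 in DX5- cells and 3534.1 in DX5+ cells, 2.02-fold higher. With the mean over probe sets neither passed 2-fold, at log2 ratios of -0.96 and 0.68. Tcf3 (E2A) differed by 1.08-fold. Of the Id genes, Id2, which innate lymphoid cells require, read 30856 and 29095 in DX5- and DX5+ cells, and Id1 was 1.20-fold higher. Id3 was thus the 1 Id gene past 2-fold, while Id4 was below both limits.

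Relatives of Bach2 and Maf were split. Of 10 detected, Maff, a small Maf protein induced by stimulation, was 2.76-fold higher in DX5- cells, with 11820 and 4284.4 units in DX5- and DX5+ cells. Nfe2, the CNC factor of megakaryocytes, was at least 3.66-fold lower, a bound that was a log2 ratio of -1.02 when the 99th percentile set the limit. Prdm1, which encodes Blimp-1 and is repressed by Bach2 in lymphocytes, was lower, with 1206 units in DX5- cells and 1803.4 in DX5+ cells. Bach1 was 1.25-fold lower, and Hmox1, its haem oxygenase target, 1.54-fold lower. Targets of Maf known from T cells were barely measurable. Il10, Blk and Cxcr5 were detected with log2 ratios of 0.33, 0.43 and 0.036, and Il4 and Il21 were below both limits.

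Around Foxo1 and Foxo3, most genes were within 2-fold and a few were past it. Of 15 detected regulators, 2 passed 2-fold, both lower in DX5- cells, and the median log2 ratio was -0.051. Sgk1, a kinase that phosphorylates Foxo proteins, had an intensity of 4679.3 in DX5- cells and 16384 in DX5+ cells, 3.50-fold lower, and Pik3cb, a PI3 kinase subunit, was 2.33-fold lower. Pik3r1, which encodes its regulatory partner, had 6777.1 and 9474.9 units in DX5- and DX5+ cells, and Skp2, part of a ubiquitin ligase for Foxo1, read 111.7 and 167.6 in DX5- and DX5+ cells. Akt1 and Akt2 were within 1.04-fold on the 2 arrays. Of 23 detected Foxo targets 3 passed 2-fold, all lower in DX5- cells, with a median of 0.066. The lower ones act in lymphocyte trafficking. They were S1pr1 (4.89-fold), a receptor for tissue exit, Klf2 (2.28-fold), a factor that induces S1pr1, and Ccr7 (2.11-fold), the lymph node homing receptor. Il7r, a Foxo1 target in T cells that encodes the interleukin 7 receptor, had an intensity of 3167.4 in DX5- cells and 1755.7 in DX5+ cells, 1.80-fold higher. The cell cycle inhibitor Cdkn1b was 1.14-fold lower and Cdkn1a 1.80-fold higher. With spike-in scaling 1 of the 23 was lower and 3 higher, as Klf2 and Ccr7 had log2 ratios of -0.97 and -0.86 and Il7r 1.07.

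Other quiescence factors lay on both sides of equality. Among 20 detected, 1 passed 2-fold upward and 2 downward, with a median of 0.056. Over all detected genes the shares were 3.76% higher and 5.65% lower. Rb1, the retinoblastoma gene, was 2.05-fold higher, with a log2 ratio of 0.80 as a mean over probe sets, while Klf2 and Foxp1 were lower. Foxp1, a forkhead factor of resting T cells, lay at the threshold, with 3530.4 and 7078 units in DX5- and DX5+ cells. Tob2, an antiproliferative gene, was 1.87-fold higher, and Klf4 read 15188 and 15129 in DX5- and DX5+ cells. With spike-in scaling 2 were higher and 0 lower, so this split depends on the scaling.

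The cell state lists, like the members and the other lists, were chosen with earlier results of these data known. Their counts are therefore a description only. The terminal effector list lay furthest from level. Of 11 terminal effector genes of NK and T cells, 8 lay at least 2-fold lower in DX5- cells, beside 5.65% of all detected genes. In that list 0 passed 2-fold upward, and the median was -1.84. S1pr5, a sphingosine 1-phosphate receptor, was at least 20.1-fold lower, Eomes 8.09-fold, Cx3cr1 7.33-fold and Klrg1 7.27-fold. As a mean over probe sets Cx3cr1 had a log2 ratio of -1.18, and the S1pr5 bound was -3.48 when the 99th percentile set the limit. Tbx21 was instead 1.23-fold higher in DX5- cells, and Gzmb read 32230 and 32238 in DX5- and DX5+ cells. DX5- cells thus had the lower readings both of Lef1 and Bach2 and of most genes of this effector list. Among 12 memory and progenitor-like genes Cd7 was 5.87-fold higher and Ccr7 was the only one past 2-fold in the lower direction, with a median of 0.018. Cxcr3 and Cd27, a chemokine receptor and a TNF receptor family member, were 1.87-fold and 1.81-fold higher. With spike-in scaling 5 were higher and 0 lower. Of 15 proliferation genes 4 passed 2-fold, all lower in DX5- cells, with a median of -0.72. They were Kif23 (3.57-fold) and Stmn1 (3.43-fold), which act on microtubules, Mcm6 (2.06-fold), a replication helicase subunit, and Birc5 (2.04-fold), which acts in cell division. Stmn1 had a log2 ratio of -1.41 without probe sets that can match several transcripts. Mcm6 and Birc5 had log2 ratios of -0.83 and -0.81 with spike-in scaling, and Mki67 had an intensity of 288.3 in DX5- cells and 560.9 in DX5+ cells. When the 99th percentile set the limit, that list had a median of -0.31.

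**Figure D3:**
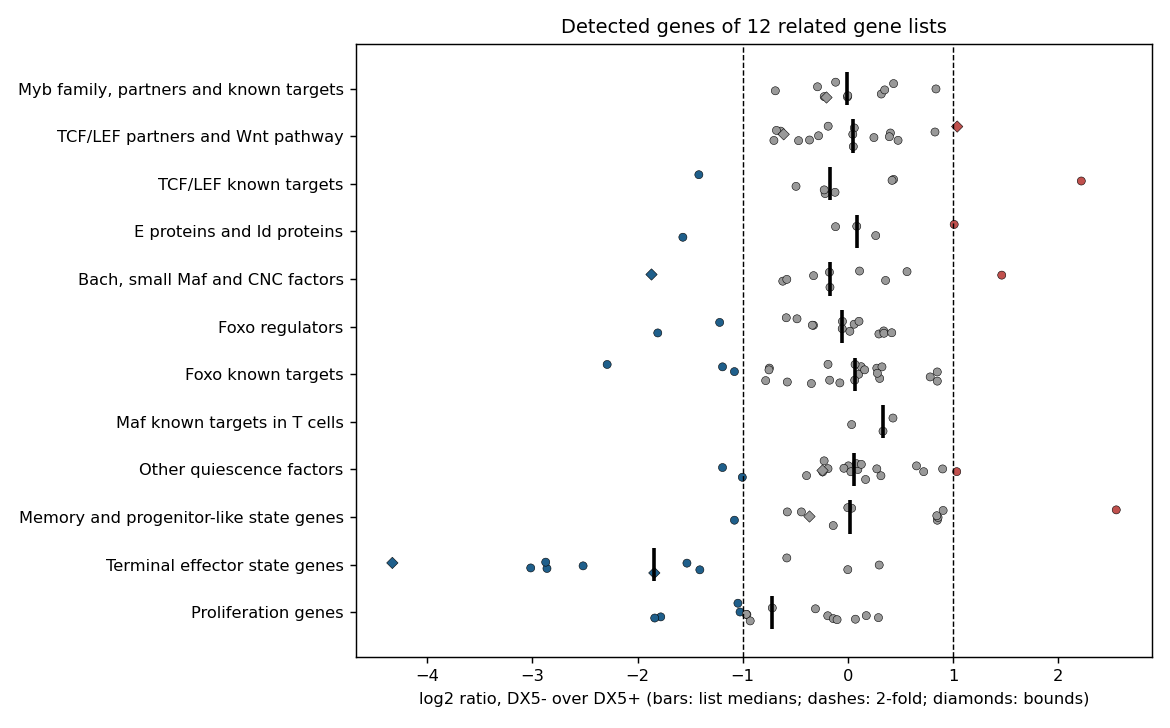
Log2 ratio of DX5- over DX5+ cells (horizontal axis) for each detected gene of the 12 lists (rows), with a black bar at each list median; red points are at least 2-fold higher, blue points at least 2-fold lower, and diamonds are bounds. The terminal effector list is centred at -1.84 and proliferation at -0.72, while the other medians lie between -0.17 and 0.33.

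Markers of other cells were read beside these results, since several members are also used by T cells, B cells, progenitors and myeloid cells. In sorted bulk RNA, fewer cells of a type and less RNA per cell cannot be told apart. Among 10 detected NK cell markers Prf1 alone passed 2-fold (2.89-fold lower, or a log2 ratio of -0.90 as a mean over probe sets). Klre1 and Cd244a were 1.83-fold and 1.76-fold higher, and Ncr1 read 2389.7 and 1787.8 in DX5- and DX5+ cells. The identity of either population was not tested by these readings. Most T cell markers lay in the opposite direction to Lef1 and Bach2 and in the same direction as Id3 and Maf. The part of T cells in the reading of any member was not tested. Of 13 detected T cell genes of 15 measured, 8 passed 2-fold, all higher in DX5- cells, led by Cd3g (13.1-fold), Camk4 (4.73-fold) and Bcl11b, and 5 did with the mean over probe sets, when Camk4 had a log2 ratio of 0.58 and Bcl11b 1.76. Cd8b1 was at least 1.37-fold lower, and Cd28 was slightly lower, with 7668.4 and 8442.4 units in DX5- and DX5+ cells. The summed intensity of the T cell genes was 33713 in DX5- cells and 14357 in DX5+ cells, with Cd4 and Themis below both limits. Cd3g makes up most of the difference between these sums, with 14036 and 1071.8 units in DX5- and DX5+ cells. B cell markers, relevant to Bach2, had 9 of 10 detected and 0 past 2-fold, with sums of 2058 and 1660.5 in DX5- and DX5+ cells, and Cd79a was below both limits. The largest were Blk, Cd79b and Ms4a1, at 1.35-fold, 1.33-fold and 1.31-fold higher. Progenitor markers, relevant to Myb, had 6 of 11 detected and 0 past 2-fold, with sums of 2548.7 and 2611.9 in DX5- and DX5+ cells, and Cd34, Mpo, Elane, Prtn3 and Dntt were below both limits. Kit makes up most of both sums, with 1738.5 and 1738.9 units in DX5- and DX5+ cells. The median log2 ratio of this list was -0.19, or -0.53 with the mean over probe sets and -0.78 with no detection limit. Gata2 and Flt3 were 1.72-fold and at least 1.71-fold lower, and Cd93 was 1.63-fold higher.

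Several non-lymphoid lists had lower readings in DX5- cells, as Myb, Lef1 and Bach2 did. Among 9 platelet genes 8 passed 2-fold in the lower direction and Itgb3 in the higher one, with sums of 1732.3 in DX5- and 6627.3 in DX5+ cells. Clec1b, Ppbp and Gp1bb led, at 8.26-fold, 7.45-fold and at least 7.42-fold lower. When the 99th percentile set the limit, the Clec1b and Gp1bb bounds were log2 ratios of -2.57 and -2.04. With the mean over probe sets Gp1bb was at -1.68 and no platelet gene passed 2-fold upward. Of 15 macrophage genes 6 were detected and 5 of them lower, with sums of 1627.2 and 6204.8 in DX5- and DX5+ cells, among them Lyz1 (6.40-fold), Mpeg1 (4.25-fold) and Lyz2 (3.44-fold). The Lyz1 value depends on the probe set, with a log2 ratio of -1.42 as a mean over probe sets. The Kupffer cell markers Clec4f, Timd4, Marco, Vsig4, Cd163 and Cd5l and the complement genes C1qa, C1qb and C1qc were below both limits. Of 8 neutrophil genes 4 were lower, with sums of 4012.1 and 10140 in DX5- and DX5+ cells, led by Ngp (2.94-fold), S100a9 (2.90-fold) and Lcn2 (2.62-fold). Of 7 detected dendritic cell genes 2 were at least 2-fold lower, Ccr9 (3.51-fold) and Siglech (3.39-fold), with sums of 2527.9 and 6647.7 in DX5- and DX5+ cells and Xcr1 below both limits. Ccr9 makes up most of the difference between these sums, with 1349.4 and 4731.1 units in DX5- and DX5+ cells. The Ccr9 probe set can match several transcripts. Cd209a was at least 1.76-fold lower. Of 4 detected basophil and mast cell genes Cpa3 was lower (4.65-fold, or a log2 ratio of -1.88 when the 99th percentile set the limit), with sums of 743.9 and 1663.9 in DX5- and DX5+ cells, and Fcer1a, Ms4a2 and Cd200r3 were below both limits. Gata2 was again 1.72-fold lower and Mcpt8 at least 1.63-fold. Hepatocyte genes had 5 of 8 detected and Ttr lower (2.22-fold), with sums of 1526.2 and 2264.2 in DX5- and DX5+ cells, and Fgb, Ahsg and Cps1 below both limits. Alb and Apoa2 were 1.51-fold and 1.25-fold lower. Endothelial genes had 5 of 9 detected and Fcgr2b lower (10.6-fold), with sums of 1566.3 and 5407.9 in DX5- and DX5+ cells, and Cdh5, Lyve1, Clec4g and Tek below both limits. Fcgr2b makes up most of the difference between these sums, with 377.9 and 4000.8 units in DX5- and DX5+ cells. Its probe set can match related transcripts, and without such probe sets its log2 ratio was -1.56 (-2.02 as a mean over probe sets). Stab2 was 1.88-fold lower and Egfl7 at least 1.60-fold. The part of such cells, or of proliferation, in the lower Myb, Lef1 and Bach2 readings was not tested.

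Scaling of the arrays affected the smaller ratios. All 18 probe sets of the hybridisation spike-ins, several of which read the same control transcript, were lower in DX5- cells, with a median log2 ratio of -0.22. Scaling to them set the median of all detected genes to 0.19, and 64.0% of the genes past 2-fold then had the higher reading in DX5- cells (698 of them, with 393 lower). On the deposited scale this share was 39.9% (400 and 602 genes). Median centring gave 56.7% (576 higher, 439 lower) and a median of 0.12. Myb, Lef1 and Bach2 stayed at least 2-fold lower and Id3 at least 2-fold higher under all 11 alternatives tried. Maf passed 2-fold with spike-in scaling (log2 ratio 1.17) and with median centring, and Foxo1 changed sign under both, to 0.072 and 0.0050.

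**Figure D4:**
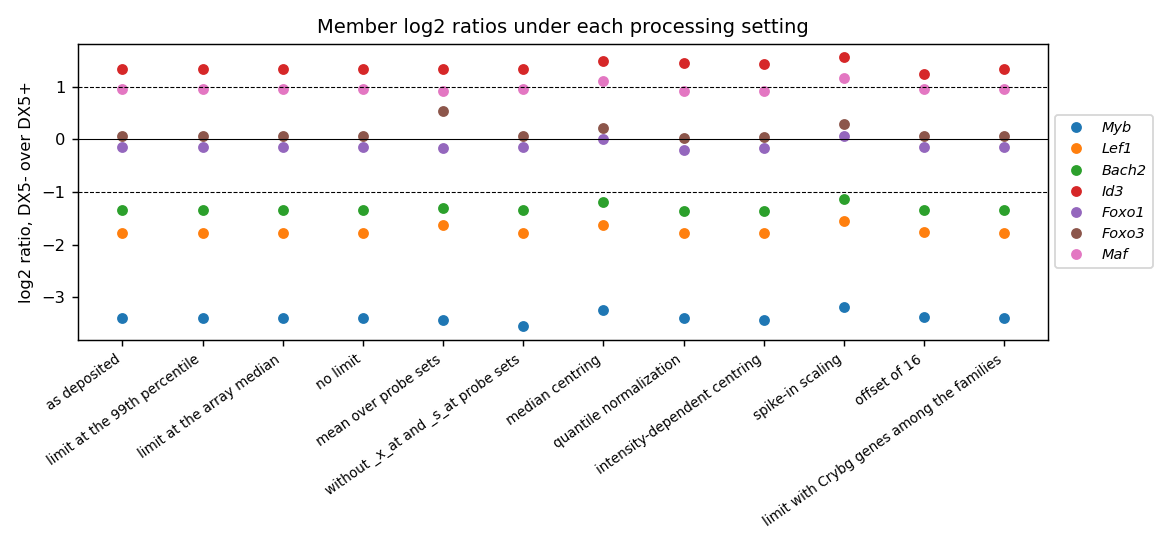
Log2 ratio of DX5- over DX5+ cells (vertical axis) of the 7 measured members (colours) as deposited and under 11 alternatives (horizontal axis), with dashed lines at 2-fold. Myb stays between -3.55 and -3.18, Lef1 and Bach2 stay below the lower line, Id3 stays above the upper one, and Foxo3 moves most with the mean over probe sets.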

How the data were processed

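Expression was measured on 2 Affymetrix arrays, 1 of DX5- and 1 of DX5+ liver NK cells. The deposited values are linear intensities made with MAS5, per the submitters' processing notes; neither its version nor its settings are given in the labels. MAS5 scales each array by 1 factor, and the mean after trimming 2% at each end was 500.0 on both arrays, so expression in absolute terms is not measured. The precision of a reading is limited by the number of arrays. No detection calls were used.

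Of 45101 probe sets 34958 had 1 gene symbol in the platform annotation, 932 several and 9211 none listed. By gene identifier 34754 of those with 1 symbol matched the RefSeq table of GRCm38.p6. Deposited intensities were taken to log2 with no offset (Python 3.11.15, pandas 2.3.3, statsmodels 0.14.6 for lowess centring). A gene above the limit on 1 array received a bound, written "at least", with its other value set at that array's limit. Genes below both limits were left out. The Crybg genes, which are not lens crystallins, were kept out of the families that set the limit. With 1 array per group no test was made. The calling steps were tested on simulated data.

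The members, gene lists and limit were chosen with earlier results of these data known. Named genes were all members, up to 4 detected genes per partner, target or state list with the largest ratio, up to 3 per marker list with the markers below both limits, and the 2 genes nearest to each member. Other genes named (Kit, Ctnnb1, Axin2, Tcf7l1, Tcf7l2, Id2, Bach1, Mybl1, Mybl2, Akt1, Akt2, Cdkn1a, Cdkn1b, Klf4, Tbx21, Gzmb, Mki67, Ncr1, Id4, Il4, Il21, Cd8b1, Cd28, Csf1r and Itgb3) were chosen after their values were seen.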

Additional observations from a re-analysis of the deposited data

How the results depend on the processing

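Over 10 alternative settings and 1 added after seeing the data (the Crybg genes counted among the families of the detection limit, which gave limits of 98.4 in DX5- and 106.6 in DX5+ cells), the count of members at least 2-fold lower stayed at 3. The count at least 2-fold higher was 2, against 1 as deposited, with median centring and with spike-in scaling, because Maf then passed 2-fold. Over all settings the member median ranged from -0.21 to 0.072. Foxo3 had a log2 ratio of 0.54 with the mean over probe sets, since its dimmer probe sets were further apart. Csf1r, a macrophage marker, had a log2 ratio of 0.10 with the mean over probe sets, against -1.61 as deposited. With no detection limit 1888 genes were at least 2-fold higher and 2838 lower in DX5- cells, against 400 and 602. In that setting 7542 genes below both limits entered and genes detected on 1 array were no longer held to a bound. No paired analysis was possible because each group holds 1 array, and no replicate could be left out for the same reason. Readings near the limit, such as the dimmer Lef1 probe set, cannot carry a firm fold.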
